A study of Mus musculus with 2 samples.

Results

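Among cells sorted from mouse lung as type 2 conventional dendritic cells (cDC2), a set with transcripts of Mrc1 and Il1rl1 and few of Ccr7 was described. Members were chosen by counts of single molecules (unique molecular identifiers, UMIs) in each cell barcode of the cDC2 library. A barcode was kept when it had 500 or more genes, 1000 or more UMIs and no more than 10% of UMIs from mitochondrial genes. It further needed at least 3 UMIs of Mgl2 and Cd209a together, fewer than 3 of Fscn1, fewer than 5 of C1qa, C1qb, C1qc, Fn1 and F13a1 together, and fewer than 4 of 6 cell cycle genes together. Members then had at least 3 UMIs of Mrc1 and Il1rl1 together and at most 1 of Ccr7. The rule took 374 cells, which were 19.3% of the 1936 kept barcodes (exact 95% binomial interval 17.6 to 21.1), 13.2% of the 2835 barcodes of that library that passed the first 3 limits, and part of 5984 deposited barcodes in all. They were set against the 590 kept barcodes with 0 UMIs of both genes, called comparison cells here.

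The series held 2 libraries, 1 per sort, from lungs of C57BL/6 mice aged 8 to 10 weeks in steady state, with no treatment and no genetic change named in the labels. Cells were freed with dispase and sorted by flow cytometry, CD172a+ cells as cDC2 and XCR1+ cells as cDC1, and each sort gave 1 library with the 10x Chromium v3.1 kit. The sources used here do not give the number of mice. The members and the comparison cells all came from the CD172a+ sort.

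The cDC2 library had 39188956 UMIs over 3045 barcodes and the cDC1 library 36021556 over 2939. Members summed to 5078552 UMIs and comparison cells to 6743231, with medians of 13205.5 and 11233.5 UMIs per cell and 2796 and 2397 genes per cell. Mitochondrial shares were close, with medians of 3.79% in members and 3.81% in comparison cells. The libraries shared 6 barcodes, of which 1 was a member and 0 were comparison cells. Under the same rule the cDC1 library, which the rule did not use, had 217 kept barcodes, 3 of them with member counts and 187 with comparison counts.

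Conventional dendritic cells take up antigen in tissues and carry it to lymph nodes, where they show it to T cells. The cDC2 branch carries CD172a (the product of Sirpa), the chemokine receptor gene Ccr2 and C-type lectins such as Mgl2 and Cd209a, and it is known for priming helper T cells, including type 2 responses in the lung. Mrc1 encodes the mannose receptor, an endocytic lectin known from macrophages and some dendritic cells. Il1rl1 encodes ST2, the receptor for the alarmin interleukin-33, which signals through Il1rap and Myd88. Ccr7 guides maturing dendritic cells towards lymph nodes, so its limit left out cells with that transcript at more than 1 UMI.

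The genes of the rule are given as a description, since they chose the cells. Mrc1 lies on chromosome 2 (GRCm38, 14229392 to 14332057, plus strand) and Il1rl1 on chromosome 1 (40429570 to 40465415, plus strand), both protein coding. Members held from 0 to 21 UMIs of Mrc1, with a median of 4, and from 0 to 11 UMIs of Il1rl1, with a median of 1. Together the genes had a median of 5 UMIs per member and a highest value of 24. Both genes were detected in 263 members (70.3%), Mrc1 without Il1rl1 in 90 (24.1%) and Il1rl1 without Mrc1 in 21 (5.61%). Most of the rule's counts were thus Mrc1 counts, 1768 of 2393 UMIs. At the threshold stood 82 members with exactly 3 UMIs. Just outside it, 671 kept barcodes had 1 or 2 UMIs, and 301 had 3 or more but at least 2 of Ccr7. As CPM (a gene's share of the summed UMIs, scaled to 1000000), Mrc1 stood at 348 and Il1rl1 at 123 in members, and both at 0 in comparison cells. Mgl2 stood at 2302 CPM in members and 1204 in comparison cells, and Cd209a at 1509 and 590.

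**Figure D1:**
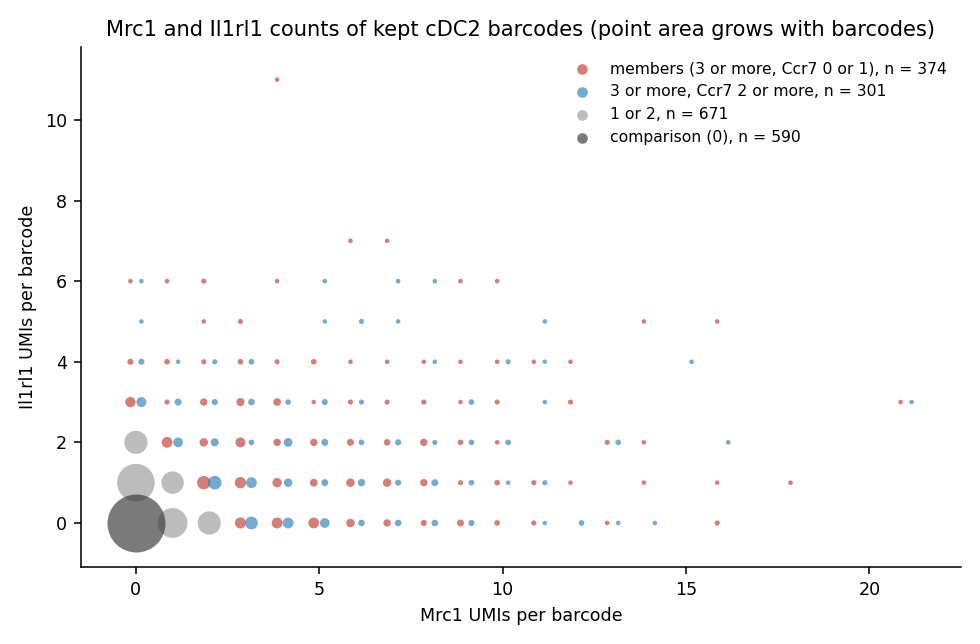
Mrc1 UMIs (horizontal) against Il1rl1 UMIs (vertical) in each kept barcode of the cDC2 library, with point area growing with the number of barcodes at that pair of counts. The 374 members and the 301 barcodes with 2 or more Ccr7 UMIs spread over the same range, mostly along the Mrc1 axis, while the 590 comparison cells sit at 0 for both genes.

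Since Mrc1 supplied most of the counts, its start region is shown first. The window runs from 250 bases before to 50 after the RefSeq transcript start (GRCm38.p6, chr2:14229164-14229463, plus strand), and capitals mark the 2 matches to the letters GAGGAAG, a core bound by the myeloid factor PU.1, here on the minus strand.
Mrc1: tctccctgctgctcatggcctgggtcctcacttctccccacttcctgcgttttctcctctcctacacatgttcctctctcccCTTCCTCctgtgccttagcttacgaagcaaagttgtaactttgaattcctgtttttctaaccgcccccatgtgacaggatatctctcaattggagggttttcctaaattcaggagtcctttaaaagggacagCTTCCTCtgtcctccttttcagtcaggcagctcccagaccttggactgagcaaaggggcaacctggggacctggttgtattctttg
On either strand, 13.6% of 32851 RefSeq start windows of this length held a match to these letters. Neither of the 2 Il1rl1 windows held one. A match is a string of letters and not a measured binding site.

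The 5 markers of the label were read as a description. They were chosen with earlier results of these data known, so their ratios are no check of the label. Cd209a, Mrc1 and Il1rl1 were in the rule, which leaves Cd209c and Cd163. Cd209c, a lectin gene of the DC-SIGN family, stood at 48.2 CPM in members and 11.1 in comparison cells (ratio 4.34, 95% interval 3.34 to 5.70), and had a UMI in 152 of 374 members and 61 of 590 comparison cells. Cd163, the haemoglobin scavenger receptor gene, stood at 39.2 CPM in members and 8.45 in comparison cells (ratio 4.64, 3.44 to 6.34), with a UMI in 95 members and 44 comparison cells. Neither gene was found in most members. Sirpa, the gene of the sorted surface protein, was at 137 CPM in members and 98.0 in comparison cells, and Xcr1 at 2.95 and 3.86. The dendritic cell genes Flt3 (88.8 CPM in members, 80.8 in comparison cells) and Zbtb46 (55.5 and 69.4) were present on both sides.

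Markers of other cells that carry Mrc1 or Il1rl1 were read beside this. Of 15 interstitial macrophage markers, C1qa, C1qb and C1qc were limited by the rule. Of the other 12, Mertk, Folr2 and Pf4 were at 0 UMIs in members, with the 12 summing to 865 CPM in members and 564 in comparison cells, mostly Cd14. The alveolar macrophage list summed to 459 CPM in members and 178 in comparison cells, nearly all of it Ear2 and Plet1, with Marco at 2.17 CPM in members and 0.297 in comparison cells and Siglecf at 8.27 and 3.71. For mast cells, which carry Il1rl1, the 10 listed genes summed to 33.7 CPM in members and 80.2 in comparison cells, nearly all of it Kit (32.9 and 73.1), and Cpa3, Ms4a2, Fcer1a, Tpsb2, Tpsab1, Cma1 and Mcpt4 were at 0 UMIs on both sides. For innate and other lymphocytes, the 11 listed genes summed to 78.0 CPM in members and 95.8 in comparison cells, nearly all of it Il7r (71.9 and 87.9) and Rora (5.71 and 6.67). Gata3, Thy1, Klrg1, Il5, Il13, Trac and Cd3g of that list were at 0 UMIs in members. The classical monocyte list summed to 214 CPM in members and 87.4 in comparison cells, nearly all of it Ccr2, with Vcan and Fcnb at 0 UMIs on both sides and Ly6c2 at 0.394 CPM in members and 11.1 in comparison cells.

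All comparisons are within 1 library, and cells are not replicates, so no test was possible and no p-value is given. Ratios are summed CPM in members over summed CPM in comparison cells, their intervals cover counting error only, and "higher" or "lower" below means at least 2-fold by size unless another value is stated. The Ccr7 limit bound the members alone. Of the comparison cells, 353 of 590 (59.8%) had 2 or more Ccr7 UMIs, so maturation differed between the sides by the choice of cells. Genes were therefore also set against the 237 comparison cells with 0 or 1 Ccr7 UMI, called Ccr7-matched here, and that value stands beside each gene called higher or lower that falls short of 2-fold there. A second difference remained, since 7 of 374 members (1.87%) had at least 3 UMIs of Cd7 and Plac8 together, against 76 of those 237 cells (32.1%).

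Of 6292 genes at 10 CPM or more on either side, the 17 rule genes left out, 233 (3.7%) were higher in members and 82 (1.3%) were lower. At 1.5-fold the counts were 871 (13.8%) and 264 (4.2%). The median log2 ratio over all these genes was 0.12, so ratios stand on a slightly raised centre. Against the Ccr7-matched cells the median was 0.00, and 160 of 6438 genes (2.49%) were higher and 108 (1.68%) lower. When barcodes with 3 or more Cd7 and Plac8 UMIs were also left out of the matched cells, 165 of 6334 genes (2.6%) were higher and 48 (0.758%) lower.

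**Figure D2:**
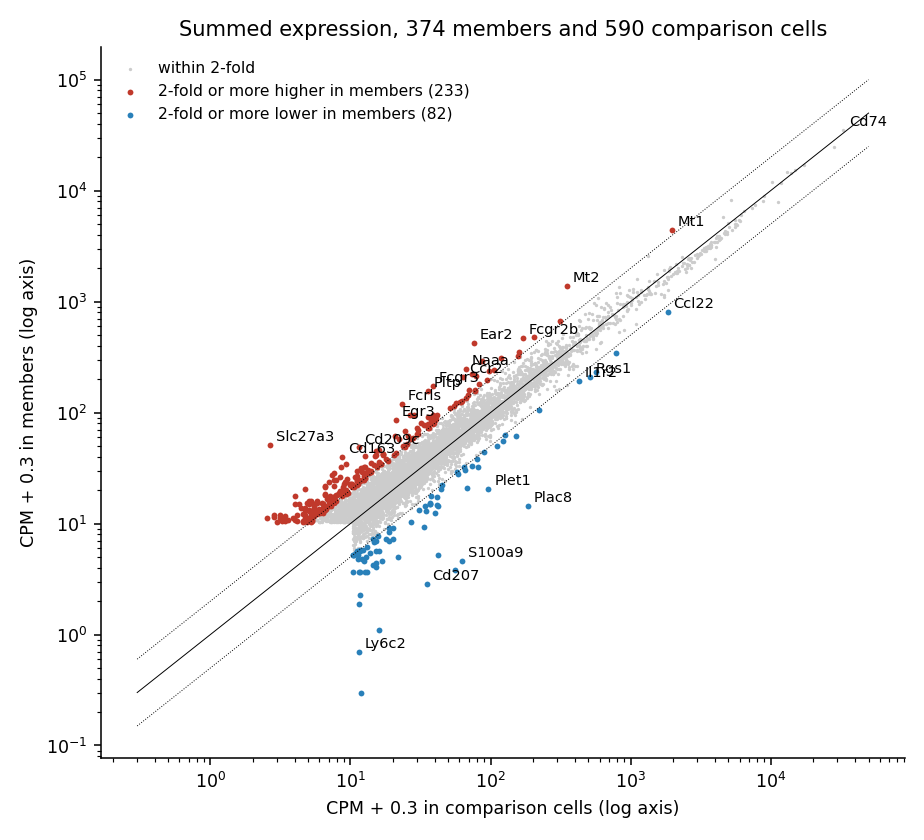
Summed CPM plus 0.3 of each gene in the 374 members (vertical, log axis) against the 590 comparison cells (horizontal, log axis), for genes at 10 CPM or more on either side with the 17 rule genes left out and dotted lines at 2-fold. Red points are the 233 genes higher in members and blue points the 82 lower, and Slc27a3 stands farthest above the line among genes at 50 CPM.

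The gene of largest ratio among those at 50 CPM or more was Slc27a3, which encodes a fatty acid transport protein with acyl-CoA synthetase activity. It stood at 50.4 CPM in members and 2.37 in comparison cells, a ratio of 21.2 (95% interval 12.8 to 37.7). A UMI of it was found in 137 of 374 members, with at most 10 in a cell, and in 16 of 590 comparison cells, with at most 1 in a cell. Against the Ccr7-matched cells, at 1.6 CPM, the ratio was 31.4. With every cell thinned to 5000 UMIs it was found in 18.8% of 368 members (14.9 to 23.1), 1.22% of 572 comparison cells and 0.595% of 168 barcodes outside the Mgl2 and Cd209a gate, whose medians before thinning were 13270, 11307 and 10037 UMIs. The gene was thus detected in a minority of members. The thinned shares rested on 7 comparison cells and 1 barcode outside the gate. Before thinning its level was 2.37 CPM in comparison cells and 0.499 outside the gate.

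The Slc27a3 start window is shown because no other gene of that level separated the sides as far (GRCm38.p6, chr3:90389889-90390188, read on the minus strand of the genome, so 5′ to 3′ along the gene). Capitals mark the 1 match to TTC and GAA set 4 bases apart, the spacing bound by STAT6, a transducer of interleukin-4 and interleukin-13 signals.
Slc27a3: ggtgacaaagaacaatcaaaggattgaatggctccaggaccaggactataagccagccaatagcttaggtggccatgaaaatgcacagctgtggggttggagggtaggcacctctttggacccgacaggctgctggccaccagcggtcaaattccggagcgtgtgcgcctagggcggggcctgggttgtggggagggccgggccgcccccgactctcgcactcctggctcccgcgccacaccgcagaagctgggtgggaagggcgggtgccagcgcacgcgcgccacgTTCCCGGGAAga
These letters, which read the same on both strands, were found in 6.95% of the 32851 windows, and no binding was measured here.

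Receptors for antibody and complement were read separately from those for dead or modified material. Of 11 measured Fc receptor and complement genes outside the rule, 2 were higher and 0 lower, with a list median log2 ratio of 0.64 against 0.12 over all genes. Fcgr3, an activating receptor for immunoglobulin G, stood at 172 CPM in members and 38.4 in comparison cells (ratio 4.49, 3.90 to 5.17), with a UMI in 288 of 374 members and 151 of 590 comparison cells. Fcgr2b, its inhibitory counterpart, stood at 474 CPM in members and 169 in comparison cells (ratio 2.80, 2.61 to 3.01), and was found in 367 members, with a median of 6 UMIs per cell. Against Ccr7-matched cells the ratios were 3.41 for Fcgr3 and 2.15 for Fcgr2b. With Cd7 and Plac8 barcodes also left out, the matched cells had 63.7 CPM of Fcgr3 and 283 of Fcgr2b. Fcgr2b fell short of 2-fold there and Fcgr3 did not. The signalling chain gene Fcer1g did not separate the sides, at 1268 CPM in members and 1187 in comparison cells. The anaphylatoxin receptor gene C3ar1 was at 14.8 CPM in members and 7.41 in comparison cells, just short of 2-fold, and at 4.81 in Ccr7-matched cells (ratio 3.07). With it, 3 of the 11 were higher and 0 lower against the matched cells.

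Of 11 measured scavenger and dead-cell receptor genes, 2 were higher and 0 lower. One was Cd163, given above. The other was Fcrls, an Fc receptor-like scavenger receptor gene of mice, at 120 CPM in members and 23 in comparison cells (ratio 5.22, 4.37 to 6.26), with a UMI in 224 members and 116 comparison cells. Its ratio against Ccr7-matched cells was 5.75. Lrp1, an endocytic receptor, was at 247 CPM in members and 156 in comparison cells. Timd4, which binds phosphatidylserine on dying cells, was at 61.2 CPM in members and 98.0 in comparison cells, yet at 58.1 in the Ccr7-matched cells.

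Lectins divided. Of 3 measured Cd209 genes outside the rule, 2 were higher, Cd209c and Cd209b (41.9 CPM in members, 16.8 in comparison cells, ratio 2.50). Cd209d was at 38.0 CPM in members and 24.2 in comparison cells, with 40 UMIs in 1 comparison barcode, and at 41.3 in Ccr7-matched cells. Of 10 other C-type lectin genes, 1 was higher, Clec4a2 (78.0 CPM in members, 38.7 in comparison cells, ratio 2.01; 1.28 against Ccr7-matched cells), and 1 lower, Cd207. Clec10a, the close relative of Mgl2, was at 144 CPM in members and 168 in comparison cells. Near-identical copies within the Cd209 and Clec4a families may have split reads in the counting, which makes these values uncertain. Cd207, which encodes langerin, was at 2.56 CPM in members and 34.7 in comparison cells, where 110 of 234 UMIs came from 1 barcode.

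Secreted and lipid-handling products followed. Ear2, which encodes a ribonuclease of the eosinophil-associated family, stood at 425 CPM in members and 75.9 in comparison cells (ratio 5.59, 5.08 to 6.17), with a UMI in 290 members, up to 45 in a cell, and in 210 comparison cells, up to 12. Its ratio was 4.77 against the Ccr7-matched cells. Pltp, the phospholipid transfer protein gene, stood at 158 CPM in members and 35.3 in comparison cells (ratio 4.47, 3.86 to 5.19; 4.06 against Ccr7-matched cells). Naaa, a lysosomal amidase gene also listed among cDC1 genes, was at 246 CPM in members and 66.6 in comparison cells (ratio 3.70). The lipoprotein lipase gene Lpl was higher, at 25.8 CPM in members and 8.16 in comparison cells. Among 11 eicosanoid genes, 2 were higher and 0 lower. They were the thromboxane synthase gene Tbxas1 (68.3 CPM in members, 24.2 in comparison cells, ratio 2.83) and the prostacyclin receptor gene Ptgir (23.2 and 9.05, ratio 2.57). Of 12 genes of TGF-beta and retinoic acid biology, 3 were higher and 0 lower: the matrix protein gene Tgfbi (237 CPM in members, 97.9 in comparison cells, ratio 2.42; 1.97 against Ccr7-matched cells), the integrin gene Itgb5 (14.8 and 6.08) and the retinaldehyde dehydrogenase gene Aldh1a2 (15.2 and 7.27). Adam15, a metalloprotease gene, was at 94.3 CPM in members and 26.1 in comparison cells, and Mpeg1, which encodes the pore-forming perforin-2, at 290 and 86.2.

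The metal-binding metallothionein genes were the most abundant transcripts among those higher in members. Mt2 stood at 1374 CPM in members and 353 in comparison cells (ratio 3.89, 3.72 to 4.08), with a median of 13 UMIs per member and a UMI in 323 of 374 members and 310 of 590 comparison cells. Against Ccr7-matched cells, at 474 CPM, the ratio was 2.90, and it was 1.98 when Cd7 and Plac8 barcodes were also left out, where the matched level was 695 CPM. Its neighbour Mt1, chosen after its values were seen, stood at 4412 CPM in members and 1979 in comparison cells (ratio 2.23), against 2163 in Ccr7-matched cells. With Cd7 and Plac8 barcodes also left out, the matched level of Mt1 was 3107 CPM, and members fell short of 2-fold. Reads may be split between these similar genes. The Mt2 start window is shown for its letters of the metal response element (GRCm38.p6, chr8:94172368-94172667, plus strand), with capitals for the 4 matches to TGCACNC or TGCGCNC on either strand.
Mt2: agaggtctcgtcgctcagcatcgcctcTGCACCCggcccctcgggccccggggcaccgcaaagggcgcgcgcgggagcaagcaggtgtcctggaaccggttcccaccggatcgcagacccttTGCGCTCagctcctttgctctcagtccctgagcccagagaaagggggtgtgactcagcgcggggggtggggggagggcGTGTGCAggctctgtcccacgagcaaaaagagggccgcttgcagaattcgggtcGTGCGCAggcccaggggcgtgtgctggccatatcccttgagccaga
At least 1 such match was found in 25.7% of the 32851 windows.

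Apart from Il1rl1 itself, the interleukin-33 receptor pathway was nearly level. Of 17 measured genes, 1 was higher and 0 lower, with a list median log2 ratio of 0.21. That gene was Sigirr, which encodes a dampening receptor of the interleukin-1 family, at 17.3 CPM in members and 6.82 in comparison cells (ratio 2.54, 1.76 to 3.71), though the ratio between sides was 1.22 among barcodes with 2 or more Ccr7 UMIs. The co-receptor gene Il1rap was at 22.6 CPM in members and 15.7 in comparison cells. Myd88 was at 55.3 CPM in members and 33.4 in comparison cells, and the response genes Nfkbia (2069 and 1921) and Nfkb1 (907 and 898) were within 1.5-fold.

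In the wider interleukin-1 family 4 of 11 genes were higher and 1 lower, but 2 higher and 0 lower against Ccr7-matched cells. The antagonist gene Il1rn was at 11.4 CPM in members and 3.11 in comparison cells, the interleukin-1 receptor gene Il1r1 at 15.2 and 5.49, and the interleukin-36 receptor gene Il1rl2 at 22.3 and 8.75, with Sigirr the other. Against Ccr7-matched cells the ratios were 1.99 for Il1r1 and 1.91 for Il1rl2, short of 2-fold. All were low transcripts, found in 29 to 87 members. The decoy receptor gene Il1r2 was lower, at 194 CPM in members and 430 in comparison cells, but at 263 in Ccr7-matched cells. Il1b was at 3177 CPM in members and 3593 in comparison cells, but at 2498 in Ccr7-matched cells, so its direction turned. Of 17 type 2 response genes, 2 were higher, the transcription factor gene Egr2 (26.2 CPM in members, 10.5 in comparison cells) and the interleukin-13 receptor gene Il13ra1 (128 and 62.7, and 71.0 in Ccr7-matched cells, ratio 1.80), and 1 was lower, Ccl22. Against Ccr7-matched cells 2 of 16 were higher and 0 lower. The chemokine genes Ccl17 and Ccl22, whose products draw Ccr4-bearing T cells, turned with the choice of comparison cells. Ccl17 was at 2445 CPM in members, 4034 in all comparison cells and 1927 in the Ccr7-matched cells. Ccl22 was at 810 CPM in members, 1836 in all comparison cells and 790 in the Ccr7-matched cells. With Cd7 and Plac8 barcodes also left out, the matched cells had 2811 CPM of Ccl17 and 1128 of Ccl22. Both values were again above those of members, though short of 2-fold, and the cause was not tested.

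Of 13 measured chemokine genes, 3 were higher and 2 lower, and against Ccr7-matched cells 2 of 12 were higher and 0 lower. Ccl4, an inflammatory chemokine gene, was at 220 CPM in members and 74.0 in comparison cells, with up to 108 UMIs in 1 member, and at 146 CPM in Ccr7-matched cells (ratio 1.51). Cxcl10, a ligand of Cxcr3, was at 34.5 CPM in members and 9.05 in comparison cells, found in 38 members, with up to 40 UMIs in 1 of them, and in 28 comparison cells. Ccl7 was at 23.4 CPM in members and 6.67 in comparison cells. Cxcl9 was lower, at 4.33 CPM in members and 16.6 in comparison cells, on 10 and 17 cells with a UMI, but at 6.42 in Ccr7-matched cells (ratio 0.675). Of 9 chemoattractant receptor genes 1 was higher, Ccr2, which answers Ccl2 and marks monocytes and cDC2, at 210 CPM in members and 63.6 in comparison cells (ratio 3.31, 2.95 to 3.71; 2.19 against Ccr7-matched cells). One was lower, the oxysterol receptor gene Gpr183, at 105 CPM in members and 222 in comparison cells, and at 171 in Ccr7-matched cells (ratio 0.613). Of 20 cytokine and growth factor genes 6 were higher and 0 lower (3 and 1 against Ccr7-matched cells). The higher ones included the epidermal growth factor family gene Areg at 15.8 CPM in members and 4.89 in comparison cells, on 19 and 9 cells with up to 30 UMIs in 1 member, and the B cell factor gene Tnfsf13b at 12.4 and 5.34 (7.22 in Ccr7-matched cells, ratio 1.72). Of 31 cytokine receptor genes, 3 were higher and 4 lower, and 0 passed 2-fold either way against Ccr7-matched cells. Kit, the stem cell factor receptor gene, was at 32.9 CPM in members and 73.1 in comparison cells, and Il2ra at 6.69 and 18.4, with 62.2 of Kit and 5.21 of Il2ra in Ccr7-matched cells.

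Of 57 measured transcription factor genes, 6 were higher and 2 lower, with a list median log2 ratio of 0.23. Egr3, an immediate early gene, was at 85.1 CPM in members and 20.9 in comparison cells (ratio 4.07, 3.36 to 4.96; 2.47 against Ccr7-matched cells). With Cd7 and Plac8 barcodes also left out of the matched cells, Egr3 was at 45.2 CPM there, short of 2-fold. Notch1, the receptor that acts as a transcriptional regulator once cleaved, was at 44.7 CPM in members and 14.8 in comparison cells (ratio 3.01; 2.23 matched). Spib was lower, at 3.74 CPM in members and 15 in comparison cells, and so was Irf8, the regulator of the cDC1 branch, at 13 and 30.5. Of 23 immediate early genes, which respond to stimulation and to cell dissociation, 3 were higher and 0 lower (Egr1, Egr2 and Egr3), with a list median of 0.54, and 0.26 against Ccr7-matched cells. Egr1 was at 72.7 CPM in members and 29.7 in comparison cells, but at 60.1 in Ccr7-matched cells. Of 10 heat shock genes 1 was higher, Hspa1b, at 179 CPM in members and 81.9 in comparison cells, with 201 of its 911 member UMIs in 1 barcode and 198 CPM in Ccr7-matched cells. Among barcodes with 2 or more Ccr7 UMIs, 4 of 11 heat shock genes were higher with the Mrc1 and Il1rl1 counts, Hspa1b at 116 CPM in barcodes with 3 or more UMIs and 13.4 in those with 0. Reads may be split between Hspa1b and its near-identical neighbour Hspa1a. Both sides came from 1 library, and the part of tissue handling in these genes was not tested.

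Among the genes lower in members, S100a8, S100a9 and Scgb1a1 each rested largely on 1 comparison barcode. S100a8 and S100a9, calgranulin genes typical of neutrophils, were at 3.54 and 4.33 CPM in members and 55.9 and 62.0 in comparison cells, where 1 barcode held 351 of 377 S100a8 UMIs and 388 of 418 S100a9 UMIs. Without the highest barcode on each side their log2 ratios were -0.29 and -0.18. Scgb1a1, an airway club cell gene, was at 54.9 CPM in members and 122 in comparison cells, with 668 of 825 UMIs in 1 comparison barcode, and without the highest barcodes its log2 ratio was 1.15. Plac8 was at 14.2 CPM in members and 183 in comparison cells, found in 24 members and 130 comparison cells, and Cd7 at 4.92 and 41.8. Ifitm6 was at 20.7 CPM in members and 67.2 in comparison cells. These were on the list of genes linked to T-bet or to mixed cDC2, of which 4 of 10 measured were lower (with Ly6c2) and 0 higher. Without Cd7 and Plac8 barcodes in the Ccr7-matched cells, Cd7 had a log2 ratio of -0.86, Ifitm6 of -0.81 and Plac8 of 0.99, the first and last being genes that set this limit.

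Further genes with lower levels in members were read next. Plet1 was at 20.1 CPM in members and 96.1 in comparison cells (ratio 0.209, 0.168 to 0.258), with a UMI in 46 and 106 cells, and its ratio was 0.371 against Ccr7-matched cells. Rgs1, a brake on chemokine receptor signalling, was at 208 CPM in members and 512 in comparison cells (ratio 0.406), and at 397 in Ccr7-matched cells (ratio 0.523). Tbc1d4, a regulator of vesicle traffic, was at 230 CPM in members and 564 in comparison cells, and Arap2 at 61.6 and 153. Both fell short of 2-fold against Ccr7-matched cells, at 388 CPM there for Tbc1d4 (ratio 0.594) and 93.4 for Arap2 (ratio 0.66). Epcam, an adhesion gene, was at 27.8 CPM in members and 58.3 in comparison cells, and at 55.3 in Ccr7-matched cells. The interferon-inducible gene Ifitm3 was at 628 CPM in members and 1084 in comparison cells, short of 2-fold, and at 1418 in Ccr7-matched cells (ratio 0.443).

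Maturation genes depended on the Ccr7 limit. Of 20 measured maturation and migration genes outside the rule, 6 were lower and 0 higher, but against Ccr7-matched cells 1 of 19 was lower and 0 higher. Il4i1, an amino acid oxidase gene, was at 32.3 CPM in members, 81.3 in all comparison cells and 28.1 in Ccr7-matched cells. The checkpoint ligand gene Cd274 was at 20.1, 43.7 and 20.9 CPM in the same order. Serpinb6b stayed lower, at 4.73 CPM in members, 21.5 in all comparison cells and 10.0 in Ccr7-matched cells. The maturation gene Cd83 was at 1109 CPM in members and 1095 in comparison cells, and Marcks at 889 and 710.

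The other lists were read in the same way. Of 14 measured genes of MHC class II presentation 1 was higher, March1, an enzyme gene that lowers surface class II, at 21.3 CPM in members, 8.60 in comparison cells and 18.0 in Ccr7-matched cells. Cd74, the invariant chain gene, was at 35360 CPM in members and 33018 in comparison cells. Of 22 class I genes, 29 lysosome and protease genes, 7 NADPH oxidase genes and 17 glycolysis and hypoxia genes, 0 passed 2-fold in either direction, at list medians of -0.15, 0.25, 0.29 and 0.01 on the log2 scale. The lysosomal genes nearest to it were Psap (2593 CPM in members, 1327 in comparison cells, ratio 1.95) and Lyz2 (1071 and 582, ratio 1.84). Of 15 shared conventional dendritic cell genes 0 passed 2-fold. Against Ccr7-matched cells 1 of 15 was higher and 0 lower, with Adam19 at a log2 ratio of 1.06, beside 2.49% higher over all genes. Of 24 cDC2 identity genes 2 were higher (Ccr2 and Clec4a2) and 2 lower (Spib and Epcam). Of 28 co-signalling genes 1 was higher, the inhibitory receptor gene Cd200r1 (23.2 CPM in members, 8.90 in comparison cells, ratio 2.61; 1.57 against Ccr7-matched cells), and 3 were lower, Sirpb1a, Cd70 and Cd274. Against Ccr7-matched cells 1 of 27 was lower, with Cd70 at 3.35 CPM in members, 11.4 in all comparison cells and 4.01 in the matched cells. Of 12 cDC1 identity genes 1 was higher (Naaa) and 3 lower (Irf8, Cd207 and Ifi205), and against Ccr7-matched cells 1 was higher and 4 lower, beside 1.68% lower over all genes. Of 14 interferon-stimulated genes 1 was higher (Cxcl10) and 2 lower (Ifitm6 and Cxcl9), with a list median of -0.27. Against Ccr7-matched cells 1 of 15 was higher and 4 were lower, with a list median of -0.33, Ifitm3 among the lower as given above. Of 9 Toll-like receptor genes and helpers 1 was higher, Tlr2 (122 CPM in members, 56.8 in comparison cells, ratio 2.15; 1.58 against Ccr7-matched cells), and 1 lower, Tlr13 (5.32 and 11.4). Of 10 inflammasome genes 0 passed 2-fold, with Nlrp3 at 152 CPM in members, 156 in comparison cells and 134 in Ccr7-matched cells. Against the matched cells 1 of 10 inflammasome genes was higher and 0 lower. Of 4 Ms4a genes 1 was higher, Ms4a6d (158 and 76.8 CPM), and of 8 S100 genes S100a8 and S100a9 were lower.

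Within barcodes with 0 or 1 Ccr7 UMI, levels were read over 5 bins of Mrc1 and Il1rl1 UMIs, at 0, 1 to 2, 3 to 5, 6 to 10 and over 10, holding 237, 299, 192, 140 and 42 cells. Depth moved with the bins, with medians of 10570, 11543, 12417.5, 13564 and 15003 UMIs per cell, and its part in the levels was not tested beyond the scaling to CPM. Slc27a3 stood at 1.6, 13.9, 35.6, 55.4 and 89.6 CPM over the bins. Ear2 stood at 89.0, 200.2, 303, 461 and 762 CPM. Both were higher at each step, as were Fcgr3 (50.5, 77.0, 133, 195 and 248 CPM), Fcrls (20.9, 57.3, 82.3, 143 and 190) and Cd209c (8.82, 29.2, 40.5, 49.8 and 71.7). Mt2 stood at 474, 865, 1211, 1485 and 1641 CPM. Cd163 was highest in the bin of 6 to 10 UMIs, at 55.4 CPM, and at 40.3 over 10. Cells with 1 or 2 UMIs, which belonged to neither side, lay between them for each of these genes. Plac8 stood at 363, 48.9, 15.1, 8.14 and 28.4 CPM. Of 2282 genes at 50 CPM or more, 266 (11.7%) were higher at every step and 123 (5.39%) lower at every step.

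**Figure D3:**
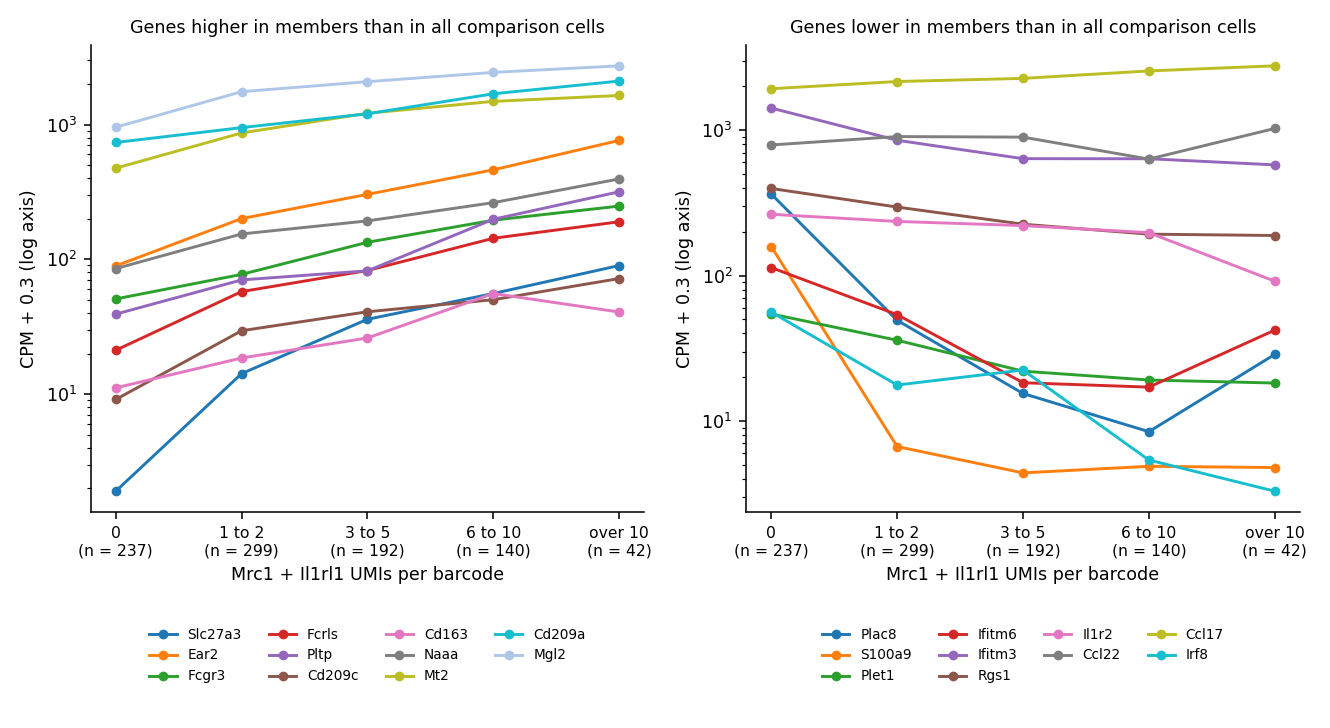
Summed CPM plus 0.3 (log axis) over 5 bins of Mrc1 and Il1rl1 UMIs per barcode, in cDC2 barcodes with 0 or 1 Ccr7 UMI. Genes on the left had more CPM, and those on the right less, in members than in all comparison cells. Of these, Mgl2, Ccl17 and Ifitm3 fell short of 2-fold, and Mgl2 and Cd209a were used by the gate. On the left Slc27a3 has the steepest course, 1.6 CPM at 0 UMIs and 89.6 over 10, and on the right Plac8 and S100a9 drop mostly between 0 and 1 to 2 UMIs (S100a9 by the 1 barcode named above) while Ccl17 is lowest at 0 UMIs and Ccl22 moves between 632 and 1026 CPM in no order.

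Levels over the 5 bins were set against the mean Mrc1 and Il1rl1 count, both as log2 of the value plus 1. Likeness was read by Pearson r, as a description over 5 points of 1 library. The most alike genes were Fcgr2b, Cfp, Mpeg1, Ear2, Sdc4, Rin3, Zc3h12a, Tmem176b, Kctd12 and Plxdc2. Fcgr2b, with r of 0.999, stood at 221, 309, 416, 497 and 614 CPM. Cfp, the complement factor properdin gene, stood at 192, 226, 259, 283 and 306 CPM, and its ratio between members and comparison cells was 1.32, so likeness of shape went with a small step. Sdc4, a heparan sulphate proteoglycan gene, stood at 99.4, 166, 264, 324 and 488 CPM. Kctd12 was at 667 CPM in members and 312 in comparison cells (ratio 2.14). The least alike were Psme1, Sin3b, Uqcrb, Ube2a and Ly6e, of which Ly6e stood at 377, 282, 232, 216 and 179 CPM.

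The same split was also read where neither side met the Ccr7 limit of members, in 301 barcodes with 3 or more Mrc1 and Il1rl1 UMIs and 353 with 0, all with 2 or more Ccr7 UMIs. These cells share a library with the members but none of their barcodes, nor those of the Ccr7-matched cells. Here 108 of 5976 genes (1.81%) were higher and 30 (0.502%) lower. Slc27a3 stood at 24.2 CPM in the barcodes with 3 or more UMIs and 2.82 in those with 0 (ratio 8.56), Ear2 at 267 and 68.2 (3.91), Fcgr3 at 109 and 31.3 (3.47), Fcrls at 70.2 and 24.2 (2.90) and Mt2 at 788 and 282 (2.80). Cd163 (17.7 and 7.06 CPM) and Cd209c (35.5 and 12.5) were higher as well. Plet1 was lower, at 44.8 and 121 CPM. Other genes higher in members were level here, Cxcl10 at 12.4 and 12.2 CPM, Lpl at 10.3 and 9.18 and Ccl7 at 6.52 and 6.82. Of 5846 genes measured in both strata, 112 were higher at low Ccr7 and 100 at high Ccr7, and 45 were in both lists, which is 40.2% of the first and 45% of the second. Of the lower genes, 62 and 22, 15 were in both, which is 24.2% and 68.2%.

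**Figure D4:**
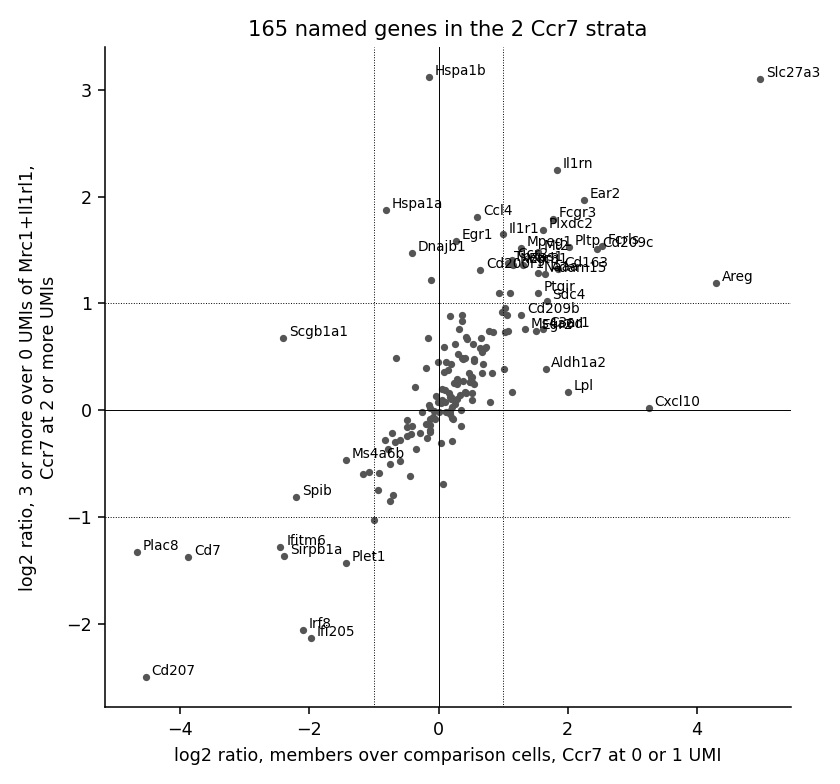
Log2 ratio of each named gene between barcodes with 3 or more and with 0 Mrc1 and Il1rl1 UMIs, at 0 or 1 Ccr7 UMI (horizontal) and at 2 or more (vertical), with dotted lines at 2-fold. Slc27a3 lies at the upper right (4.97 and 3.1), Ear2, Fcrls and Fcgr3 lie in the same corner, and Cxcl10 is far right near 0 on the vertical axis.

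Members were not uniform. The 90 with at least 3 Mrc1 UMIs and no Il1rl1 were set against the 21 with at least 3 Il1rl1 UMIs and no Mrc1, whose medians were 12612.5 and 11639 UMIs. Pltp stood at 195 CPM in the Mrc1 cells and 20 in the Il1rl1 cells (ratio 9.79, 4.13 to 30.4, on 221 and 5 UMIs), and Cebpb, a myeloid transcription factor gene, at 132 and 28. Cd209a was higher in the Mrc1 cells, at 1637 and 627 CPM, and so was Mt2, at 1462 and 683. The Il1rl1 cells had more of Mmp12, a macrophage elastase gene (31.8 CPM in the Mrc1 cells, 276 in the Il1rl1 cells), Kit (15.9 and 91.9), Epcam (15.9 and 87.9) and Egr3 (63.7 and 208). Fcgr2b (473 and 495 CPM), Ear2 (480 and 411) and Ccl17 (2155 and 1845) were close in both. Slc27a3 stood at 60.1 and 39.9 CPM, an interval for the ratio of 0.771 to 3.28 that includes 1. The 21 cells sum to 250394 UMIs, so a single cell can carry much of a value.

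The threshold itself showed no break. The 82 members at exactly 3 UMIs had 17.3 CPM of Slc27a3, 117 of Fcgr3, 263 of Ear2, 1007 of Cd209a and 1049 of Mt2. The 130 barcodes at exactly 2 UMIs and 0 or 1 of Ccr7 had 18.9, 90.3, 244, 1070 and 979 CPM of the same genes.

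Deeper cells reach 3 UMIs more easily. Detection was read again at 5000 UMIs per cell, which left out 6 members and 18 comparison cells. The sets were still those chosen at full depth, so this reading leaves the part of depth in the choice of cells untested. At that depth Fcgr3 was found in 50% of 368 members (44.8 to 55.2), 13.8% of 572 comparison cells and 10.7% of 168 barcodes outside the Mgl2 and Cd209a gate. Before thinning those shares were 77.0%, 25.6% and 18.3%. Ear2 was found in 62.2%, 22.7% and 19.6%, Fcrls in 38.9%, 10.1% and 0.595%, and Cd163 in 13.3%, 3.5% and 0% of the same 3 sets. The comparison cells' shares of Fcgr3 and Ear2 thus lay near those outside the gate. C1qa was found in 3.53% of members and 2.62% of comparison cells. Choosing the cells after thinning instead gave 168 members and 983 comparison cells. On their full counts 204 of 6290 genes were higher and 91 lower. Of the named genes, 32 of the 42 higher and 25 of the 30 lower ones stayed at 2-fold or more.

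**Figure D5:**
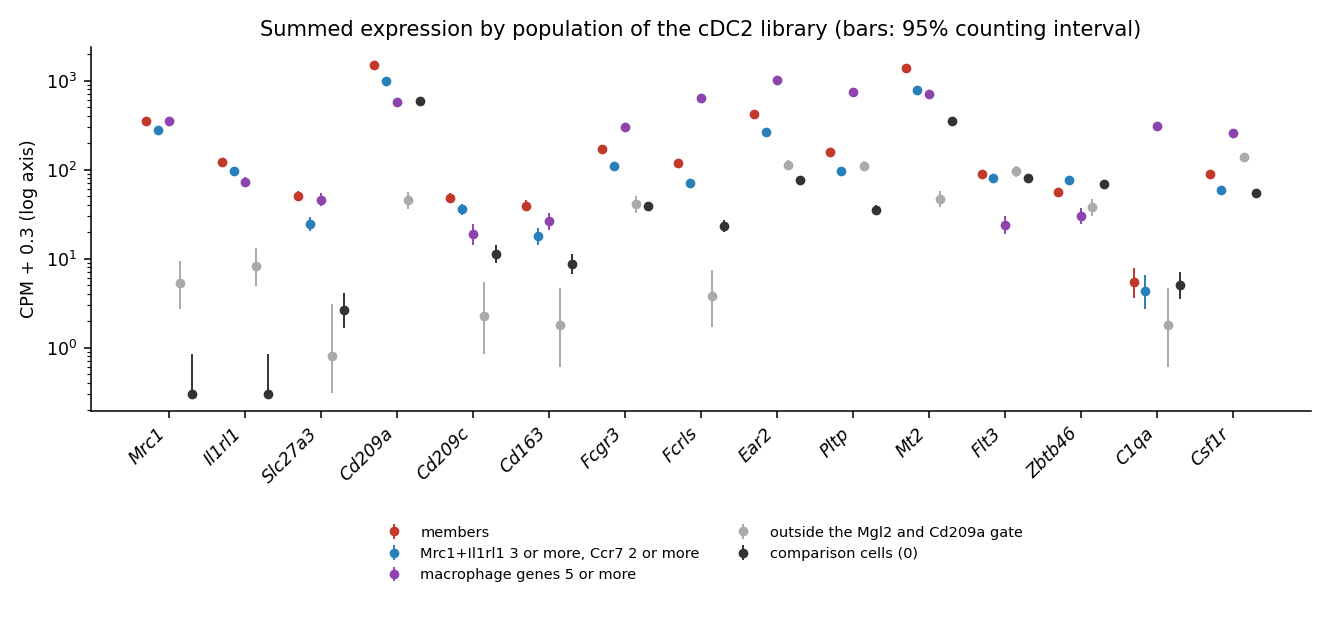
Summed CPM plus 0.3 (log axis) of 15 genes in members, in the 301 barcodes with 2 or more Ccr7 UMIs, in 192 barcodes with 5 or more UMIs of macrophage genes, in 241 barcodes outside the Mgl2 and Cd209a gate and in comparison cells; bars are 95% counting intervals and a point at 0.3 is a count of 0. Members lie close to the macrophage-gene barcodes in Mrc1 (348 and 353 CPM) and Slc27a3 (50.4 and 45.7). Mrc1 chose the members, and the gap in C1qa (5.12 and 310) was set by the choice of cells.

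Lastly, members were set beside the 192 barcodes of the same library left out for 5 or more UMIs of C1qa, C1qb, C1qc, Fn1 and F13a1, of which 144 (75%) had 3 or more Mrc1 and Il1rl1 UMIs. Mrc1 stood at 348 CPM in members and 353 in those barcodes, Il1rl1 at 123 and 72.9, and Slc27a3 at 50.4 and 45.7. Fcrls was lower in members, at 120 CPM and 634, as were Ear2 (425 and 1015), Pltp (158 and 747), Lyz2 (1071 and 6972) and Csf1r (88.8 and 256). Members were higher in Flt3 (88.8 and 23.7 CPM), while Zbtb46 (55.5 and 29.7) fell short of 2-fold and Cd209a (1509 and 575) was a gene of the gate. Fcrls, Ear2, Pltp and Ccr2 were thus higher in both sets than in comparison cells, and the macrophage-gene barcodes stood farther out. Among barcodes with no UMI at all of these macrophage genes, 297 members and 482 comparison cells, 235 genes were higher and 86 lower, against 233 and 82 over all cells of the 2 sets.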

How the data were processed

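Single-cell RNA libraries of 2 lung sorts were analysed. For each library the authors deposited a matrix of unnormalised UMI counts. Counts came from Cell Ranger 3.2 on mm10, and Seurat is named without a role, per the submitters' processing notes, while the file headers give software version 3.0.2. The sources used here do not say how barcodes were selected before deposit. Of 31053 features, 30934 were matched by ID to GENCODE vM21 (GRCm38), and 741 of 753 gene list symbols were matched.

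Barcodes were filtered and chosen as in the rule (Python 3.11.15, numpy 2.4.6, pandas 2.3.3, scipy 1.17.1). UMIs were summed per set and scaled to CPM. Ratios have exact conditional binomial 95% intervals, shares have Clopper-Pearson intervals, and ratios took 3 counts in place of a sum of 0. No doublet caller was run. Thinning to 5000 UMIs used a fixed seed. The size rule was tested on simulated counts with known changes.

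The members and the lists were chosen with earlier results of these data known. Named genes were the rule genes, the label markers, the 12 largest ratios each way at 50 CPM or more (without predicted, histone, mitochondrial, ribosomal and receptor segment genes), per list up to 4 largest absolute ratios at 10 CPM and the 2 highest levels, the 10 most and 5 least alike over bins, the 6 largest each way between Mrc1-only and Il1rl1-only members, the sort genes and markers of other cells. Other genes set beside these 2 subsets and at other depths were taken from the same names. Alternatives covered depth, thresholds, the comparison cells, scaling, filters and single barcodes. Those on Ccr7 and Cd7 with Plac8 together, on Ccr7-high cells and on the highest barcodes were added after the data were seen. A few genes that this rule named are not reported here.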

Additional observations from a re-analysis of the deposited data

How the results depend on the processing

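The counts of 233 genes higher and 82 lower came to 114 and 52 against all kept barcodes under 3 UMIs, 495 and 149 with members chosen by Il1rl1 alone, 108 and 30 with 2 or more Ccr7 UMIs on both sides, 61 and 23 among genes at 50 CPM or more, 2006 and 1380 with no filter on low values, and 871 and 264 at 1.5-fold. With Ccr7 at 0 or 1 and Cd7 with Plac8 under 3 UMIs in the comparison cells, the lower count was 48. Scaling by the median ratio gave 189 and 101. The share of members among kept barcodes, 19.3%, was 8.89% when cells were chosen after thinning to 5000 UMIs, 26.0% at 2 or more UMIs and 12.3% at 5 or more. With Cd7 and Plac8 barcodes left out of the Ccr7-matched cells, 22 of the 42 named genes higher in members stayed at 2-fold or more. So did 14 of the 30 lower ones. Against all Ccr7-matched cells, 30 of the 42 stayed at 2-fold or more, as did 15 of the 30 lower ones. Among these 2-fold genes log2 ratios changed sign for Il4i1 (0.20), Ccl22 (0.036), Il2ra (0.36) and Hspa1b (-0.15). With Cd7 and Plac8 barcodes left out of those as well, they did so for S100a9 (0.28), Plac8 (0.99), Il2ra (0.032), Cd274 (0.032) and Hspa1b (-0.32). Leaving out Cd7 and Plac8 barcodes alone turned Plac8 (1.53). Leaving out the highest barcode of each gene turned Scgb1a1 (1.15), and the Ccr7-high barcodes turned Scgb1a1 (0.67), Ccl7 (-0.066) and Tlr13 (0.0036). The cause was not tested in these cases, beyond the change of cells in each. No paired analysis was possible because each sort has 1 library and all comparisons lie within it. With 1 library, no value here says how far another mouse or sort would differ.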
